A study of Mus musculus with 60 samples.

Results

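The transcripts described are those of the cytochrome P450 genes of the mouse kidney other than the CYP4A and CYP4B subfamilies, in mice with and without a working clock in the renal tubule. Members were taken by symbol (Cyp with a family number, a subfamily letter, and a gene number), without all Cyp4a and Cyp4b genes, Cyp24a1, Cyp27b1, Cyp51, and pseudogenes. Of 88 symbols left, 38 reached a read count of at least 1 CPM (counts scaled to library size) in at least 1 of the 60 samples, among 15546 transcripts retained in all. The other 50 stayed below 1 CPM in each sample.

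P450 enzymes are heme monooxygenases, most of which sit in the endoplasmic reticulum and take electrons from the reductase encoded by Por. Family members oxidize drugs and solvents, turn arachidonic acid into epoxides, and hydroxylate steroids, oxysterols, retinoic acid, and vitamin D. In the kidney much of this activity lies in the proximal tubule. In the liver, several P450 genes are known targets of the PAR bZIP factors DBP, TEF, and HLF, clock outputs that bind a DNA element called the D-box.

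RNA was sequenced from 60 male mice on a C57BL/6J background, 5 of each genotype at each of 6 zeitgeber times (ZT) 4 h apart. The cKOt mice were Bmal1lox/lox/Pax8-rtTA/LC1 animals, in which doxycycline (DOX) switches on Cre in cells that express Pax8, that is in the renal tubule. Control mice were Bmal1lox/lox littermates. Both genotypes thus carried the floxed alleles, and both drank DOX (2 mg/ml, with 20 mg/ml sucrose) for 2 weeks from 8 weeks of age, and kidneys were taken 4 weeks later. Loss of Bmal1 and presence of the transgenes cannot be told apart between these groups. The labels name renal tubule as the tissue and the methods describe frozen half-kidneys. Markers of podocytes, which lie outside the tubule, summed to 252 to 369 CPM in control mice.

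Arntl, the gene that Cre deletes in part, had 48.4 ± 10.2 CPM (SD, n = 5) at ZT0 and 2.73 ± 0.825 CPM at ZT8 in control mice. In cKOt mice it lay between 14.7 and 26.8 CPM in all 30 samples, above every control mouse at ZT8 and ZT12. Counts per gene include reads from cells without Cre and from exons that are not deleted. Libraries held 17791420 to 20906706 counts on genes. The cKOt mouse with replicate number 4 at ZT16 is marked for removal in the sample table of the study and was kept here.

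Levels per kilobase of exons, the scale on which genes can be compared, spanned from Cyp2j5 down to Cyp3a13 (plot of levels by genotype). Cyp2j5, an epoxygenase of arachidonic acid, had the highest level, with a mean over all mice of 918 CPM per kb. Cyp2e1, which oxidizes ethanol and solvents, followed with 708 CPM per kb. The next mean levels were those of Cyp2a4 (170.0 CPM per kb), Cyp7b1 (145 CPM per kb), Cyp2j11 (126 CPM per kb), Cyp2j13 (95.7 CPM per kb), Cyp2d26 (54.9 CPM per kb), and Cyp2d9 (39.1 CPM per kb). The members were thus unevenly expressed, and Cyp2j5 with Cyp2e1 made up most of the total. In the median control mouse Cyp2j5 held 33.3%, Cyp2e1 32.8%, Cyp2a4 11.2%, and Cyp7b1 4.51% of the summed level per kb of the 38 members. In the median cKOt mouse these shares were 43.9%, 25.0%, 1.64%, and 7.86%. The summed level ranged from 2206 to 3469 CPM per kb (median 2673) in control mice and from 1784 to 2505 CPM per kb (median 2169) in cKOt mice, with overlap.

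**Figure D1:**
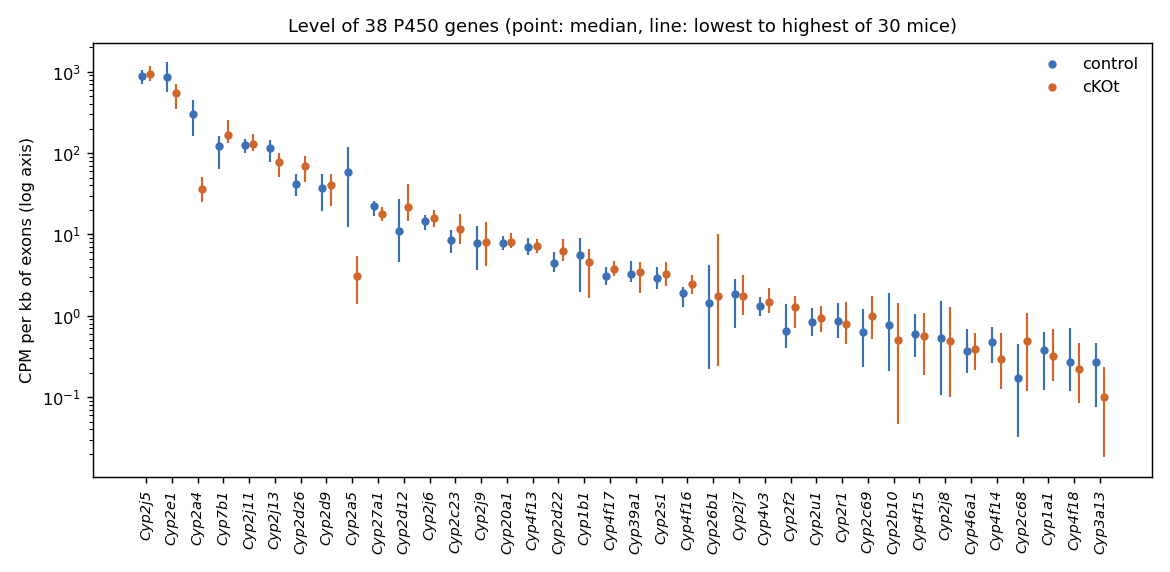
Level of each of the 38 members in CPM per kb of exons (log axis), with the median and the lowest to highest value of 30 control and 30 cKOt mice. Cyp2j5 and Cyp2e1 have the highest levels, and for Cyp2a4 and Cyp2a5 the ranges of the genotypes do not meet.

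At the lower end, 12 members did not reach 1 CPM in all 60 samples. Cyp2c68 reached it in 8 cKOt mice and no control mouse, Cyp3a13 in 8 control mice and no cKOt mouse, Cyp4f18 in 1 control mouse alone, and Cyp4f14 in 19 control and 4 cKOt mice. Members that entered through the genotype in which they are higher had to differ, so counts over all members are a description. Before scaling, Cyp4f18 (highest sample 1.28 CPM) and Cyp3a13 (1.32 CPM) lay just inside the minimum, and Cyp26a1 (0.674 CPM) and Cyp2c38 (0.618 CPM) just outside. Cyp17a1, which makes androgen precursors, reached at most 0.608 CPM.

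To ask whether loss of Bmal1 in the tubule alters P450 transcript levels, the mean over the 6 time points was compared between genotypes. Of the 38 members, 15 were higher in cKOt mice (39.5%, against 26.8% of all retained transcripts) and 11 were lower (28.9%, against 23.2% of all). Of the 32 members with a mean of at least 1 CPM, 14 were higher and 7 lower. The shares among all transcripts with such a mean are not given here. The median log2 fold change was 0.04 over the members and 0.01 over all transcripts, and its median size without sign was 0.30 and 0.10. Differences of at least 2-fold were called for 5 members (13.2%, against 1.88% of all), which were Cyp2a5, Cyp2a4, Cyp3a13, Cyp2c68, and Cyp2d12 (plot of fold changes by family). Without Cyp3a13 and Cyp2c68, which passed the minimum in 1 genotype alone, 3 remained.

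**Figure D2:**
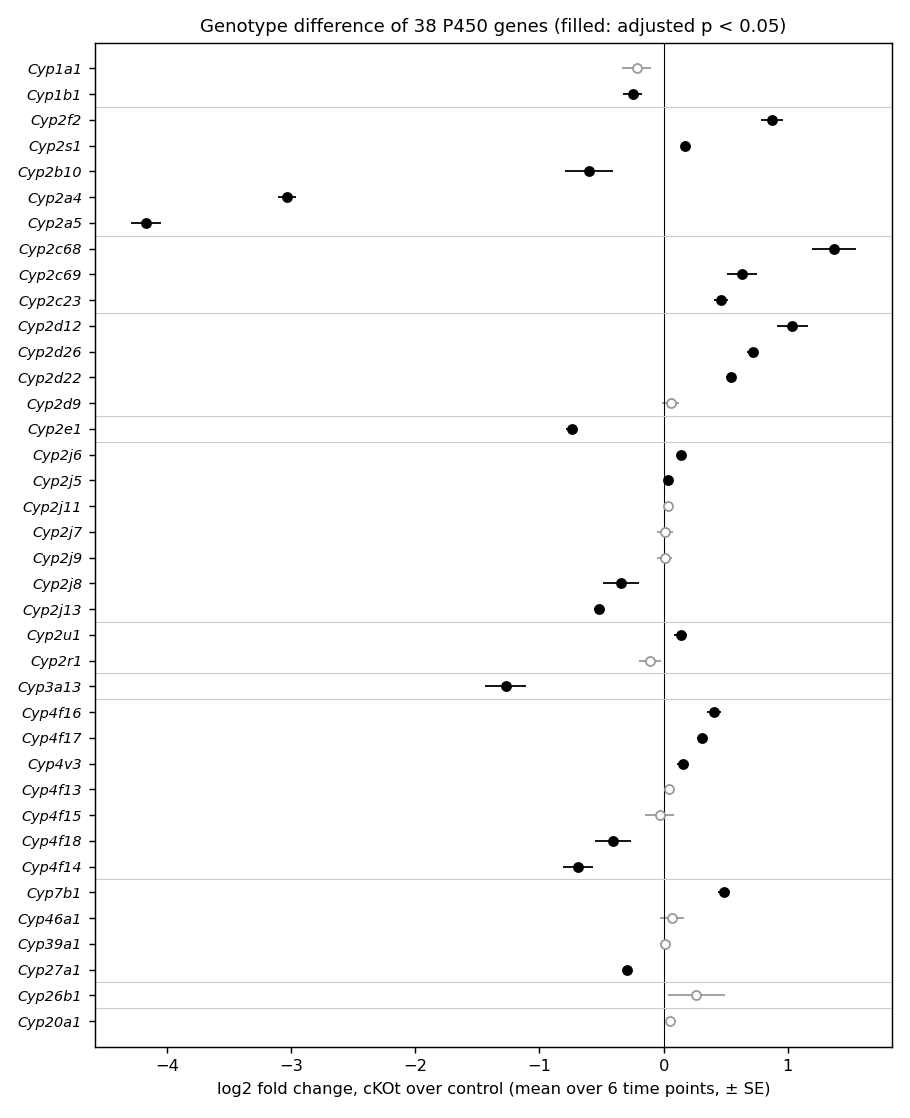
Log2 fold change of cKOt over control mice (mean over 6 time points) with its standard error for the 38 members, grouped by family. Cyp2a5 (-4.17) and Cyp2a4 (-3.03) lie farthest below 0, and the CYP2C and CYP2D members have values above 0.

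The largest decreases were those of Cyp2a5, a coumarin hydroxylase, and Cyp2a4, a closely related steroid hydroxylase. Cyp2a5 ranged from 25.2 to 249 CPM (median 122) in control mice and from 2.93 to 11.2 CPM (median 6.45) in cKOt mice. The ranges did not overlap. Its log2 fold change was -4.17 ± 0.12 (SE, adjusted p = 8.90e-35), 18.0-fold lower in cKOt mice. Cyp2a4 ranged from 286 to 777 CPM (median 524) in control mice and from 42.9 to 88.7 CPM (median 62.7) in cKOt mice. These ranges did not overlap either, and the log2 fold change was -3.03 ± 0.07 (adjusted p = 8.91e-39), 8.18-fold lower. At each of the 6 time points every cKOt mouse was below every control mouse for both genes, which held for these 2 of the 38 members (5.26%) and for 0.675% of all transcripts. Within the 6 library batches the difference ran from -4.80 to -3.29 for Cyp2a5 and from -3.38 to -2.58 for Cyp2a4 (log2).

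Both genes are protein coding and lie on the plus strand of chromosome 7 (GRCm38), Cyp2a4 at 26307169 to 26315088 and Cyp2a5 at 26835305 to 26843548. Of all windows of 150 bases, the read length, 4.56% in Cyp2a5 and 4.22% in Cyp2a4 transcripts occur in another gene as well, so that a small part of their reads cannot be assigned. The 250 bases before the RefSeq start (GRCm38.p6) are shown because the most altered members share them nearly base for base. Capitals mark the D-box (TTATGNAA, searched on both strands), which lies here on the opposite strand.
Cyp2a4 (chr7:26306942-26307191, plus strand): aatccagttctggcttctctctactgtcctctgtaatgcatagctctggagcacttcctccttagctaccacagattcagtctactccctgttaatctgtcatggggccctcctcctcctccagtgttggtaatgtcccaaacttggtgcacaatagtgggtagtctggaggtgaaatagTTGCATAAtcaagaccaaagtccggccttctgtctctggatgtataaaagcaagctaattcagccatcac
Cyp2a5 (chr7:26835089-26835338, plus strand): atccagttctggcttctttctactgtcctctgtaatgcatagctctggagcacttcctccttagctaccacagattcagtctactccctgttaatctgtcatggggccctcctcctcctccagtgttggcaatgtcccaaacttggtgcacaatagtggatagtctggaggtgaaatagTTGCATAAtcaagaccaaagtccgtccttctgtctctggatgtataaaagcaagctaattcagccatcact
The D-box began 70 bases before the start in Cyp2a4 and 71 bases before it in Cyp2a5. Of 299 bases compared, with 50 bases past the start included, 294 were identical (98.3%). Counted from 1 at the first base of the Cyp2a4 window, with the Cyp2a4 base first and the Cyp2a5 base last, the differences C19T, T131C, G161A, and G205T lay before the start and T270C after it, and none fell in the D-box.

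A promoter in RefSeq, taken as 250 bases before to 50 bases after a start, was matched for 30 members with 34 starts. A D-box was found in 5 members, Cyp2a4, Cyp2a5, Cyp2b10, Cyp27a1, and Cyp4f14 (at 1 of its 4 starts), that is in 14.7% of the member promoters and 3.38% of all promoters. All 5 were lower in cKOt mice, as were 6 of the 25 members without the motif. Of all retained transcripts with a promoter, 34.4% of 308 with a D-box and 23.2% of 11109 without one were lower. These counts are a description, and Cyp2a4 and Cyp2a5 share their sequence. The motif in the other 3 members is shown within 60 bases, with capitals as before.
Cyp2b10 (chr7:25897574-25897633, plus strand): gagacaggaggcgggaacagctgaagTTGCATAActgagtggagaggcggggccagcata
Cyp27a1 (chr1:74713449-74713508, plus strand): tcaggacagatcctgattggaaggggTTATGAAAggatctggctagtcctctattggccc
Cyp4f14 (chr17:32917104-32917163, minus strand): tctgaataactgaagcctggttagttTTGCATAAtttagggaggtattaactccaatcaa
The E-box (CACGTG, both strands), bound by BMAL1 with CLOCK, was found for Cyp2j6 and Cyp4v3, in 5.88% of member promoters and 7.15% of all. These 2 members were higher in cKOt mice. Among all retained transcripts with an E-box in a promoter, 28.2% were higher and 24.2% lower. The core of the element of ROR and REV-ERB receptors (AGGTCA, both strands) was found for Cyp2a4, Cyp2a5, Cyp2f2, and Cyp2j5, in 11.8% of member promoters and 16.3% of all. Of these 4 members, 2 were lower and 2 higher, against 25.9% lower and 28.8% higher of all transcripts with this core. The core of the element of the aryl hydrocarbon receptor (GCGTG, both strands) was found for 12 members, in 38.2% of member promoters and 32.4% of all. Of these 12, 4 were lower and 3 higher, against 23.2% lower and 28.5% higher of all transcripts with this core.

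Transcripts of the factors that bind the D-box differed between genotypes by time of day. Dbp (-1.45 ± 0.10, adjusted p = 3.80e-19) and Tef (-0.57 ± 0.04, adjusted p = 1.70e-19) were lower in cKOt mice in the mean. Nfil3, a repressor at the same elements, was higher (1.44 ± 0.13, adjusted p = 5.05e-14). The mean of Hlf did not pass the test (0.01 ± 0.03, adjusted p = 0.781). For all 4 of these genes the difference varied between time points (adjusted p from 2.13e-10 to 4.79e-04). Whether these factors act on the P450 genes was not tested.

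The other genes of the chromosome 7 cluster went in either direction. Cyp2b10, a target of the xenobiotic receptor CAR, ranged from 0.439 to 3.99 CPM (median 1.63) in control mice and from 0.0993 to 3.07 CPM (median 1.05) in cKOt mice. The ranges overlapped, and the log2 fold change was -0.60 ± 0.20 (adjusted p = 0.00910). Cyp2f2, which oxidizes naphthalene in the lung, was higher by 0.87 ± 0.09 (adjusted p = 5.08e-12), from a median of 1.32 to 2.58 CPM. Cyp2s1 was higher by 0.17 ± 0.03 (adjusted p = 2.62e-05). Genes on the opposite strand cover 13.5% of the exon bases of Cyp2f2 and 5.27% of those of Cyp2s1, and if strand was not used in counting their reads may be included. The same holds for Cyp2u1 (10.5%), Cyp4f18 (9.76%), and Cyp2a4 (3.51%). Genes on the same strand overlap Cyp4v3 (8.22%) and Cyp2d9 (7%), whose values are uncertain to that extent.

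The CYP2C members, of a subfamily that acts on drugs and arachidonic acid, were Cyp2c23, Cyp2c69, and Cyp2c68, the last of which reached 1 CPM in cKOt mice alone, so that its direction was set by the choice of members. Cyp2c23, an epoxygenase, ranged from 12.8 to 24.5 CPM (median 18.5) in control mice and from 16.6 to 38.1 CPM (median 25.0) in cKOt mice. The ranges overlapped, and the log2 fold change was 0.46 ± 0.06 (adjusted p = 1.03e-09). Cyp2c69 (0.63 ± 0.12, adjusted p = 1.63e-05) and Cyp2c68 (1.37 ± 0.18, adjusted p = 2.84e-09) were higher at low counts. Cyp2c68 had 1 to 14 counts in control and 4 to 37 in cKOt libraries. Of the windows of 150 bases, 20.2% in Cyp2c69 and 8.83% in Cyp2c68 occur in other Cyp2c genes, which makes these values uncertain.

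Of the 4 CYP2D members, a cluster on chromosome 15 (GRCm38, 82370527 to 82794294), 3 were higher in cKOt mice. Cyp2d12 ranged from 18.0 to 106 CPM (median 42.2) in control mice and from 56.1 to 163 CPM (median 85.4) in cKOt mice. The ranges overlapped, and the log2 fold change was 1.04 ± 0.12 (adjusted p = 2.41e-10), 2.05-fold higher. Cyp2d26 ranged from 53.6 to 100.1 CPM (median 74.0) in control mice and from 77.9 to 163 CPM (median 123) in cKOt mice. It was higher by 0.72 ± 0.04 (adjusted p = 4.80e-21), with overlap between the genotypes. Cyp2d22 was higher by 0.54 ± 0.04 (adjusted p = 9.92e-19), from a median of 17.4 to 24.7 CPM. Cyp2d9, a testosterone hydroxylase, lies between Cyp2d22 and Cyp2d12 and did not pass the test (0.06 ± 0.07, adjusted p = 0.535).

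Cyp2e1 ranged from 1223 to 2805 CPM (median 1868) in control mice and from 761 to 1511 CPM (median 1167) in cKOt mice. The ranges overlapped over the whole day, but at 5 of the 6 time points every cKOt mouse was below every control mouse. At ZT12 the 5 control mice had 2388, 2064, 2131, 2805, and 1804 CPM, and the 5 cKOt mice 1426, 1246, 883, 1511, and 1449 CPM. The log2 fold change was -0.74 ± 0.05 (adjusted p = 5.89e-20), 1.67-fold lower in cKOt mice, and ran from -0.87 to -0.52 within library batches.

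The 7 CYP2J members, epoxygenases of arachidonic acid and related lipids, form a cluster on chromosome 4 (GRCm38, 96027534 to 96664154). Cyp2j13 ranged from 360.0 to 683 CPM (median 538) in control mice and from 238 to 471 CPM (median 367) in cKOt mice. It was 1.43-fold lower (-0.52 ± 0.04, adjusted p = 4.23e-16), with overlap over the whole day. Cyp2j6 was higher by 0.14 ± 0.02 (adjusted p = 5.29e-06). Cyp2j5 ranged from 1669 to 2432 CPM (median 2086) in control mice and from 1816 to 2789 CPM (median 2175) in cKOt mice. Its difference of 0.04 ± 0.02 (adjusted p = 0.0466) was 1.03-fold and did not pass the test in 11 of 14 alternatives (adjusted p from 0.0158 to 0.471). Cyp2j8 was lower by 1.27-fold (-0.35 ± 0.14, adjusted p = 0.0410) at 3 to 41 counts, and the call was lost in 5 of 14 alternatives (adjusted p from 0.0173 to 0.368). Cyp2j11 (0.03 ± 0.03), Cyp2j7 (0.01 ± 0.06), and Cyp2j9 (0.01 ± 0.06) did not pass the test.

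Among the sterol hydroxylases, Cyp7b1, which acts on oxysterols, ranged from 137 to 352 CPM (median 262) in control mice and from 286 to 551 CPM (median 365) in cKOt mice. It was 1.40-fold higher (0.48 ± 0.05, adjusted p = 3.20e-12), with overlap. Cyp27a1, the mitochondrial sterol hydroxylase, ranged from 36.3 to 56.4 CPM (median 48.5) in control mice and from 32.0 to 47.3 CPM (median 38.3) in cKOt mice. It was lower, with a log2 fold change of -0.29 ± 0.03 (adjusted p = 4.92e-12) and overlap between the genotypes. The oxysterol hydroxylase Cyp39a1 (0.01 ± 0.04) and the cholesterol hydroxylase Cyp46a1 (0.07 ± 0.09) did not pass the test.

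Of the 7 members of CYP4F and CYP4V, which hydroxylate fatty acids and eicosanoids, 3 were higher and 2 lower. Cyp4f16 was higher by 0.40 ± 0.06 (adjusted p = 1.43e-08), from a median of 5.82 to 7.56 CPM. Cyp4f17 (0.31 ± 0.04, adjusted p = 8.22e-09) and Cyp4v3 (0.16 ± 0.05, adjusted p = 0.00659) were also higher. Cyp4f14, a hydroxylase of leukotrienes, was 1.61-fold lower (-0.69 ± 0.12, adjusted p = 3.29e-06), at 12 to 33 counts in control and 6 to 29 in cKOt libraries. Cyp4f18 was lower as well (-0.41 ± 0.14, adjusted p = 0.0165), at 4 to 25 and 3 to 16 counts. Cyp4f18 reached 1 CPM in 1 control mouse alone, so that its direction was set by the choice of members. The calls of Cyp4v3 and Cyp4f18 were lost without replicate 1 (adjusted p = 0.122 and 0.118). Cyp4f13 (0.04 ± 0.03) and Cyp4f15 (-0.03 ± 0.12) did not pass the test.

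Of the remaining members, Cyp3a13, of the family of drug and steroid hydroxylases, was 2.42-fold lower (-1.27 ± 0.17, adjusted p = 3.49e-09), at 4 to 24 counts in control and 1 to 13 in cKOt libraries. Cyp3a13 reached 1 CPM in control mice alone, so that its direction was set by the choice of members. Cyp1b1, a target of the aryl hydrocarbon receptor, ranged from 11.5 to 53.2 CPM (median 32.4) in control mice and from 9.71 to 38.5 CPM (median 26.9) in cKOt mice. It was 1.19-fold lower (-0.25 ± 0.08, adjusted p = 0.00605). The call was lost without replicate 2 (adjusted p = 0.119), and the difference was negative in 5 of 6 library batches (-0.54 to 0.04). The related Cyp1a1 (-0.22 ± 0.11, adjusted p = 0.110) did not pass, but did so without replicate 5 (adjusted p = 0.0207). Cyp2u1, a fatty acid hydroxylase, was higher by 0.14 ± 0.05 (adjusted p = 0.0231), a call lost in 5 of 14 alternatives (adjusted p up to 0.0957). The vitamin D hydroxylase Cyp2r1 (-0.11 ± 0.09), the retinoic acid hydroxylase Cyp26b1 (0.26 ± 0.23), and the orphan Cyp20a1 (0.05 ± 0.03) did not pass the test.

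Marker genes of kidney cells were measured beside these results. Summed markers of the proximal tubule segments S1 and S2 ranged from 9380 to 13260 CPM (median 10430) in control and from 8613 to 14190 CPM (median 10180) in cKOt mice, with 3 of 7 higher and 3 lower. Summed S3 markers ranged from 3187 to 4308 CPM (median 3615) in control and from 2515 to 3702 CPM (median 3047) in cKOt mice, with 1 of 5 higher and 2 lower. In bulk samples, fewer cells of a type and less RNA per cell cannot be told apart, and the part of cell composition in the P450 values was not tested. Of hepatocyte markers, which the kidney in part also expresses, 1 of 5 tested was higher and 2 were lower, and Cyp7a1, Cyp8b1, Ahsg, and Cps1 had a median of 0 CPM in both genotypes and at most 0.355 CPM. The higher one was Serpina1c, from a median of 1.91 to 3.08 CPM (0.68 ± 0.07, adjusted p = 8.93e-12). Ttr, which had the highest level of these markers (medians of 145 and 158 CPM), did not pass the test (0.04 ± 0.08). Apoa1 did not pass it either (0.45 ± 0.20). The 2 lower ones were Alb, from a median of 7.83 to 1.03 CPM (-2.92 ± 0.12, adjusted p = 8.00e-28), a log2 difference close to that of Cyp2a4, and F2, from a median of 0.344 to 0.182 CPM (-0.60 ± 0.22, adjusted p = 0.0177). The part of these transcripts in the Cyp2a values was not tested. The counts of other markers tested were 0 of 5 higher and 5 lower for endothelium, 0 of 5 higher and 4 lower for fibroblasts, 0 of 5 higher and 4 lower for macrophages, 0 of 3 higher and 2 lower for B and T cells, 1 of 4 higher and 0 lower for podocytes, 2 of 4 higher and 1 lower for thick ascending limb, 2 of 3 higher and 0 lower for distal convoluted tubule, 3 of 6 higher and 1 lower for collecting duct, 1 of 5 higher and 2 lower for tubule injury, and 0 of 2 higher and 0 lower for adrenal cortex.

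To ask whether P450 transcripts follow the time of day, differences between time points were tested within each genotype. Of the 38 members, 13 varied in control mice (34.2%, against 30.6% of all transcripts) and 12 in cKOt mice (31.6%, against 26.6% of all). The test was passed in both genotypes by 9 members (23.7%, against 16.7% of all), in control mice by a further 4 (10.5%, against 13.9%), and in cKOt mice by a further 3 (7.89%, against 9.93%), which does not show that the genotypes differed. The test of that difference was passed by no member in edgeR (0 of 38, against 3.08% of all). At an unadjusted p below 0.05 it was passed by 6 members (15.8%, against 14.7% of all), which were Cyp1b1, Cyp2a5, Cyp2j13, Cyp2j7, Cyp2j8, and Cyp2j9. DESeq2 and limma each called 1 member after adjustment, Cyp2a5.

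In the choice among rhythm models, 13 members were assigned the same rhythm in both genotypes (34.2%, against 25.2% of all) and 12 no rhythm (31.6%, against 34.0% of all). A rhythm in control mice alone was assigned to 2 members (5.26%, against 6.25% of all), a rhythm in cKOt mice alone to 1 (2.63%, against 3.42% of all), and different rhythms to none (0 of 38, against 2.37% of all). The other 10 members reached no model weight of 0.65.

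Cyp2a5 was assigned a rhythm in control mice alone, with a weight of 0.98. Its amplitude from trough to peak was 1.33 (log2) in control and 0.11 in cKOt mice, and the control peak fell at ZT13.1. At ZT0 the 5 control mice had 131, 64.2, 73.4, 65.0, and 25.2 CPM, and at ZT12 200.4, 249, 179.8, 222, and 147 CPM. All 5 at ZT12 were above all 5 at ZT0. At the same times the 5 cKOt mice had 6.84, 5.88, 4.77, 9.70, and 5.83 CPM, and 6.91, 5.47, 2.93, 4.73, and 6.62 CPM, with overlap. The difference between genotypes was -3.44 ± 0.29 at ZT0 and -5.17 ± 0.31 at ZT12 (log2). Its variation over time did not pass the test in edgeR (adjusted p = 0.0746), and it passed in 3 of 14 alternatives (adjusted p from 0.0159 to 0.438). Cyp2c68, the other member with this assignment, had at most 14 counts in a control library. Cyp2a4, which shares the promoter sequence of Cyp2a5 nearly base for base, was assigned no rhythm (weight 0.75). Its amplitude was 0.32 in control and 0.09 in cKOt mice. It did not pass the test between time points in either genotype (edgeR, adjusted p = 0.421 in control and 0.250 in cKOt mice).

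**Figure D3:**
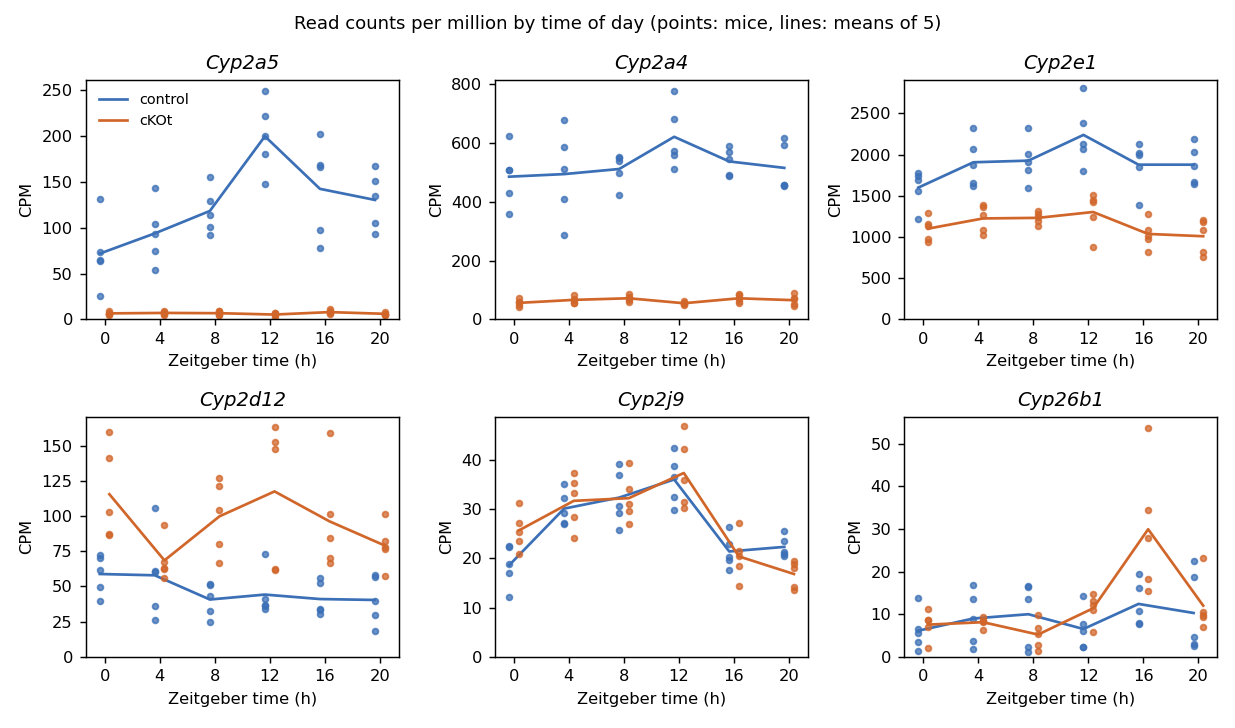
CPM of 6 members by zeitgeber time (h), with single mice as points and the means of 5 mice joined by lines, for control and cKOt mice. Cyp2a5 rises to ZT12 in control mice and stays at or below 11.2 CPM in cKOt mice, Cyp2j9 has its highest mean at ZT12 in both genotypes, and so does Cyp26b1 at ZT16 (mean CPM of 12.4 for control and 30.0 for cKOt mice).

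Among the 13 members with the same rhythm in both genotypes, Cyp2j9 had the largest shared amplitude, 0.93 (log2), with a peak at ZT8.4. In control mice it had 18.6 ± 4.27 CPM at ZT0 and 36.0 ± 4.93 CPM at ZT12 (SD, n = 5). In cKOt mice it had 25.6 ± 3.90 CPM at ZT0 and 37.3 ± 7.17 CPM at ZT12. The genotype difference of Cyp2j9 was called at ZT0 alone (0.48 ± 0.15, log2 with SE, adjusted p = 0.0221). It had the opposite sign at ZT20 (-0.40 ± 0.15, adjusted p = 0.065). Its variation over time did not pass the test (edgeR, adjusted p = 0.127). The next amplitudes were those of Cyp2j7 (0.74, peak at ZT9.2), Cyp1a1 (0.73, ZT19.6), Cyp46a1 (0.47, ZT9.8), Cyp2u1 (0.46, ZT21.0), Cyp39a1 (0.43, ZT7.8), and Cyp2j6 (0.37, ZT7.1). Cyp46a1, Cyp2d9, and Cyp4v3 did not pass the test between time points in either genotype (adjusted p from 0.121 to 0.418). The remaining 6 were Cyp2d22, Cyp2d9, Cyp2e1, Cyp4f13, Cyp4v3, and Cyp27a1, with amplitudes of 0.22 to 0.34. Of the 13, 11 peaked between ZT7.1 and ZT11.6, that is in the light phase, and Cyp1a1 and Cyp2u1 peaked in the dark phase. The share of all transcripts assigned this model that peaked in the light phase is not given here. Cyp2j8 had a larger amplitude (1.77, ZT8.9) but reached a weight of only 0.63. Its control mice had 0.162, 0.414, 0.731, 0.221, and 0.290 CPM at ZT0 and 2.32, 2.04, 1.35, 1.90, and 1.12 CPM at ZT12, without overlap.

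Cyp26b1 varied over the day in cKOt mice (adjusted p = 0.00169) and did not pass in control mice (adjusted p = 0.578). At ZT16 the 5 cKOt mice had 18.3, 27.9, 53.7, 15.3, and 34.6 CPM and the 5 control mice 7.68, 10.7, 16.2, 8.02, and 19.6 CPM. The groups overlapped, and the difference of 1.36 ± 0.51 (log2) was at the threshold without passing it (adjusted p = 0.05). The variation of the difference over time did not pass either (edgeR, adjusted p = 0.444). Cyp4f14, the member assigned a rhythm in cKOt mice alone (amplitude 0.67, weight 0.68), did not vary there by the test between time points (adjusted p = 0.249).

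At single time points, genotype differences were called for 11 members at ZT0 (28.9%, against 12.1% of all transcripts), 10 at ZT4 (26.3%, against 12.5%), and 16 at ZT8 (42.1%, against 19.9%). They were called for 15 at ZT12 (39.5%, against 21.0%), 17 at ZT16 (44.7%, against 19.8%), and 14 at ZT20 (36.8%, against 13.8%). Members called at all 6 were Cyp2a4, Cyp2a5, Cyp2d22, Cyp2d26, Cyp2e1, and Cyp2j13, and Cyp2d12, Cyp2f2, and Cyp7b1 were called at 5. The share of all transcripts called at 5 or 6 time points is not given here. For no member was every cKOt mouse above every control mouse at all 6 time points (0 of 38, against 0.708% of all transcripts).

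**Figure D4:**
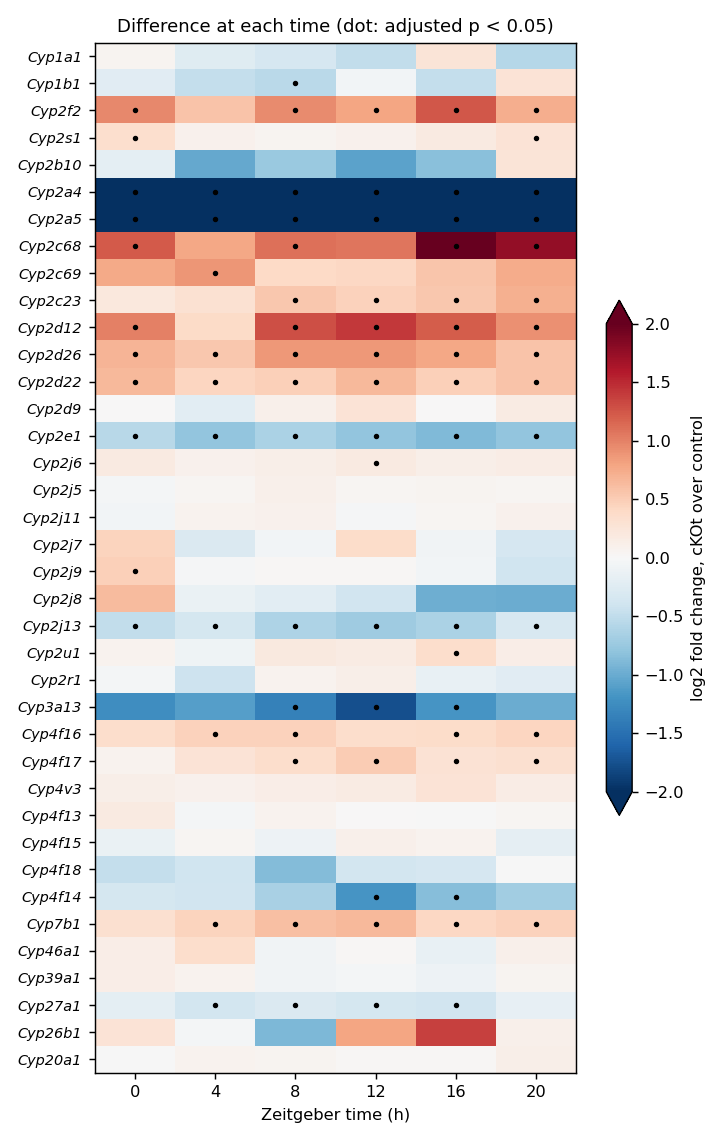
Log2 fold change of cKOt over control mice at each zeitgeber time (columns, h) for the 38 members (rows), with colors that end at -2 and 2 and dots at an adjusted p below 0.05. Cyp2a4 and Cyp2a5 lie past the end of the scale at all 6 times, and Cyp2e1 and Cyp2j13 are lower and Cyp2d22 and Cyp2d26 higher at all 6.

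Genes that serve the P450 enzymes were compared as well. Of 9 redox partners tested, 6 were lower and 1 higher in cKOt mice, and of all transcripts 23.2% were lower and 26.8% higher. Por fell from a median of 227 to 151 CPM (-0.61 ± 0.02, adjusted p = 4.55e-28), and its difference varied over the day (adjusted p = 1.24e-04) between -0.88 and -0.32. Cyb5a, which encodes the electron donor cytochrome b5, was lower (-0.26 ± 0.02, adjusted p = 3.08e-13), as were Cyb5r3 (-0.17 ± 0.02), Cyb5r1 (-0.16 ± 0.03), Cyb5b (-0.14 ± 0.02), and Fdx1 (-0.11 ± 0.02). Fdxr, the reductase of the mitochondrial P450 enzymes, was higher (0.16 ± 0.04, adjusted p = 0.00141). Of 3 epoxide hydrolases tested, Ephx2, which acts on epoxides of arachidonic acid, was lower, from a median of 660.5 to 449 CPM (-0.58 ± 0.03, adjusted p = 5.74e-26). Ephx1 (0.03 ± 0.03) and Ephx3 (-0.34 ± 0.16) did not pass the test.

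Of 15 regulators of P450 genes, 4 were higher and 7 lower in cKOt mice (against 26.8% higher and 23.2% lower of all transcripts). Nr1i2, which encodes the xenobiotic receptor PXR, was higher, from a median of 4.35 to 7.11 CPM (0.65 ± 0.06, adjusted p = 5.85e-13). Nr1i3, which encodes CAR, was lower, from a median of 0.603 to 0.322 CPM (-0.85 ± 0.20, adjusted p = 4.18e-04). The bile acid receptor gene Nr1h4 (-0.47 ± 0.07) and Ppara (-0.30 ± 0.04) were lower, and the difference of Ppara varied over the day (adjusted p = 0.0457, -0.47 to 0.06). Lower values were also found for Rxra, Hnf4a, Nr1h3, and Nr3c1 (-0.19 to -0.07). Arnt, which encodes the partner of the aryl hydrocarbon receptor, was higher (0.07 ± 0.02, adjusted p = 0.00126). The aryl hydrocarbon receptor gene Ahr (0.01 ± 0.04, adjusted p = 0.842) did not pass the test. Of the 10 P450 genes left out by name that were tested, 8 were lower and 1 higher, with a median log2 fold change of -0.70.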

How the data were processed

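Whole-transcriptome RNA-seq was performed on kidneys of 60 mice. As described by the study, libraries were stranded, polyadenylated RNA was sequenced as single reads of 150 cycles, and 5 of 6 mice per group were chosen by the authors. Per the submitters' processing notes, bcl2fastq, cutadapt 1.8, STAR 2.5.3a, and HTSeq 0.9.1 were used with GRCm38. The strand setting of HTSeq is not given in the sources used here. The authors deposited raw read counts per gene, 1 table per mouse, with 55335 gene IDs, of which 55154 had a symbol in GENCODE M21. HTSeq does not count reads aligned to several places. These made up 24.3% to 29.4% of the entries tallied as on genes, in no feature, ambiguous, or aligned to several places. Unaligned reads and those of low alignment quality were left out of that total. The share ran from 25.7% to 29.4% in control and from 24.3% to 26.9% in cKOt libraries. A further 5.19% to 7.87% of the same total fell in no feature. Summary rows were left out. No libraries held identical counts.

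CPM, read counts scaled to the library's total on genes, served as the filter: a transcript was kept if any of the 60 samples reached 1 CPM. Counts were scaled by TMM and fitted with edgeR 4.0.16 (quasi-likelihood F-test, R 4.3.3) over 12 groups with 2 RUVs factors of unwanted variation as covariates. Adjusted p-values are those of Benjamini and Hochberg over all 15546 transcripts, with a threshold of 0.05. Fold changes are log2, cKOt over control, with standard errors. CPM values are TMM-scaled unless stated otherwise. Rhythms of 24 h were assigned by BIC weight (at least 0.65) among 5 models after dryR. DESeq2 1.42.0 and limma 3.58.1 were alternatives. The scripts were tested on simulated data. Each sample is 1 mouse, and each of 6 library batches held both genotypes. Their numbers ran from 6 cKOt and 3 control mice (batch 4) to 3 cKOt and 6 control mice (batch 6). Promoters were taken from RefSeq (GRCm38.p6).

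Members, gene lists, and motifs were chosen with earlier results of these data known. Members were named by size of change (up to 8 in each direction), by level per kb (8), by variation of the difference with time, by amplitude in each rhythm model, and by closeness to the minimum of 1 CPM, and every other member is named with its family. The time courses of Cyp26b1 and Cyp2j8 were chosen for description after their values were seen. Some listed regulators are not reported here by name.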

Additional observations from a re-analysis of the deposited data

Results flagged for a closer look

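In groups of 5 mice, the highest or the lowest mouse stood apart from the other 4 by the Dixon test (critical value 0.71) in 17 of 276 groups over 23 named members (6.16%). Chance flags about 1 in 20 groups. For Cyp2d26, replicate 4 of the control ZT4 mice had 100 CPM against 73.6 to 79.5 CPM in the other 4, and replicate 5 of the cKOt ZT4 mice had 77.9 CPM against 111 to 123 CPM in the other 4. For Cyp1b1, replicate 2 of the cKOt ZT20 mice had 27.3 CPM against 35.4 to 38.5 CPM in the other 4. For Cyp2c23, replicate 2 of the cKOt ZT20 mice had 38.1 CPM against 22.8 to 25.5 CPM in the other 4. For Cyp27a1, replicate 4 of the cKOt ZT12 mice had 47.3 CPM against 38.2 to 40.5 CPM in the other 4. For Cyp2j13, replicate 3 of the cKOt ZT12 mice had 238 CPM against 345 to 368 CPM in the other 4. For Cyp2b10, replicate 3 of the control ZT0 mice had 3.99 CPM against 0.580 to 1.40 CPM in the other 4, and replicate 3 of the cKOt ZT0 mice had 1.82 CPM against 1.18 to 1.36 CPM in the other 4. For Cyp7b1, replicate 4 of the control ZT12 mice had 352 CPM against 253 to 282 CPM in the other 4. For Cyp2f2, replicate 3 of the control ZT20 mice had 2.61 CPM against 0.903 to 1.39 CPM in the other 4. For Cyp2d22, replicate 4 of the control ZT16 mice had 16.1 CPM against 18.8 to 19.9 CPM in the other 4. For Cyp26b1, replicate 4 of the cKOt ZT20 mice had 23.2 CPM against 7.01 to 10.5 CPM in the other 4. For Cyp2j11, replicate 5 of the cKOt ZT4 mice had 330.0 CPM against 246 to 264 CPM in the other 4. For Cyp2d9, replicate 1 of the control ZT0 mice had 125 CPM against 90.1 to 100 CPM in the other 4. For Cyp2c69, replicate 5 of the cKOt ZT4 mice had 2.80 CPM against 1.85 to 1.98 CPM in the other 4, and replicate 3 of the cKOt ZT20 mice had 2.97 CPM against 1.47 to 1.88 CPM in the other 4. For Cyp2d12, replicate 5 of the control ZT12 mice had 73.0 CPM against 34.1 to 41.2 CPM in the other 4.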

How the results depend on the processing

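Over the settings tried (DESeq2 size factors, DESeq2 or limma-trend in place of edgeR, no filter or a stricter filter on low counts, no removal of unwanted variation or library batch in its place, a replicate block, and the omission of samples), 531 values of the mean genotype difference were computed for the 38 members. Of these, 506 kept their side of the threshold, 24 lost significance, 1 gained it, and none called in the main test reversed. Among members not called, the sign changed in some settings for Cyp2j9 (-0.08 to 0.09), Cyp4f15 (-0.13 to 0.11), Cyp39a1, Cyp2j7, and Cyp2j11. The 7 members with a change of call were Cyp1a1, Cyp1b1, Cyp2j5, Cyp2j8, Cyp2u1, Cyp4f18, and Cyp4v3, and the causes were not tested. Of 144 counts of members, 125 stayed within 1.5 times the reported count. Restricting the members to a mean of at least 1 CPM left 7 lower members by construction. The count of members whose difference varied with time was 1 with DESeq2 and 1 with limma-trend, in place of 0, and 0 to 2 when 1 replicate number was omitted (2 without replicate 5, Cyp2a5 and Cyp2j13). With a BIC weight of 0.8 there were 6 members without rhythm, 1 with rhythm in control mice alone, and 0 in cKOt mice alone. The last count was 2 with a weight of 0.5, 2 with 1 factor of unwanted variation, and 0 with none. Different rhythms were assigned to 1 member with a weight of 0.5. On leaving out samples, rhythm in control mice alone ranged from 1 to 3 members, rhythm in cKOt mice alone from 0 to 2 (0 without replicate 4 of the cKOt mice at ZT16), and different rhythms from 0 to 1.

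After the 2 RUVs factors were fitted, mice with the same replicate number did not deviate together (mean correlation 0.0019 over 330 pairs, against -0.0004 over 1320 pairs with different numbers). A shared deviation taken up by these factors would not be seen, so this does not decide whether the numbers pair the mice. For mice of the same library batch the mean correlation was 0.046 over 270 pairs, against -0.0089 over 1380 pairs from different batches. With the replicate number as a block, 15 members were higher and 11 lower, the difference varied with time for 0, 14 varied over the day in control and 12 in cKOt mice, and different rhythms were assigned to 1 member in place of 0.

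Members near 1 CPM had few counts per library. The largest standard errors of the mean difference were those of Cyp26b1 (0.23), which was not near that level, Cyp2b10 (0.20), Cyp2c68 (0.18), and Cyp3a13 (0.17).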
